A study of Mus musculus with 36 samples.

Results

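Trp53 (NCBI gene 22059), the mouse gene of the tumour suppressor p53, is 1 of the 27179 genes in the deposited count table, and its row was read in all 36 libraries. RNA was sequenced from 3 mouse lymphoma cell lines, AH47A, 287 and 621, labelled Em-myc, in which an immunoglobulin enhancer drives a Myc transgene. Each line carried a negative control construct or 1 of 5 mutant p53 constructs labelled G280, I192S, R246Q, R270H and V170M, and each of these 6 versions of a line was sequenced untreated and after nutlin-3a. Treated cultures received 5 µM nutlin-3a for 12 hours together with 25 µM QVD-OPH, a caspase inhibitor, and the sources used here do not say whether untreated cultures also received QVD-OPH. The 12 groups of construct and treatment therefore held 3 libraries each, 1 per line, and no line was labelled as repeated. Each line thus stands as 1 culture per construct, the p-values measure the spread between these libraries only, and every mutant was set against the same control libraries.

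The p53 protein is a transcription factor that halts the cell cycle or triggers apoptosis under stress. In unstressed cells the ubiquitin ligase MDM2 binds and degrades it, and MDM4 holds its activity down, so that cells keep much transcript and little protein. Nutlin-3a occupies the p53 pocket of MDM2 and frees wild-type p53, which then drives its target genes, Mdm2 among them. As p53 works as a tetramer, mutant subunits can join wild-type subunits and lower the activity of the whole, an effect called dominant negative. Tumours of mice with the Em-myc transgene arise from B lineage cells and often lose p53 function.

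The Trp53 gene lies on the forward strand of chromosome 11, from 69580348 to 69591873 in GRCm38.p6. The constructs are named by the protein position they change, so the reference codons at these positions are shown, in the 390-codon reading frame of GENCODE transcript Trp53-203 on GRCm38, each with 12 bases on either side and the codon in capitals.
V170M, exon 5, chr11:69588493-69588519: atgacggaggtcGTGagacgctgcccc
I192S, exon 6, chr11:69588637-69588663: ccccagcatcttATCcgggtggaagga
R246Q, exon 7, chr11:69589201-69589227: ggcatgaaccgcCGAcctatccttacc
R270H, exon 8, chr11:69589595-69589621: agctttgaggttCGTgtttgtgcctgc
G280, exon 8, chr11:69589625-69589651: gggagagaccgcCGTacagaagaagaa

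The first residue of the label was encoded at its position in 4 of 5 cases, namely valine, isoleucine and 2 arginines. Codon 280 encodes arginine in this frame, while the label G280 gives a single letter and no second residue, and the sources used here do not explain it. In the frames of 387 and 378 codons none of the 5 labelled residues stood at its number, and in the frame of 381 codons 4 of 5 did. By the design text the p53 put into the cells was human, and no human sequence was used here. Yet 4 of 5 labels matched codons of the mouse gene. Counts on the mouse gene were 3.37-fold to 8.88-fold those of the control of the line in the untreated mutant libraries. Whether the constructs held human or mouse sequence was not tested. The deposited counts are per gene and hold no bases, so reads from the endogenous gene and from a construct, and wild-type and mutant codons, cannot be told apart. In the following, Trp53 counts means both together.

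The libraries held 5404113 to 10718302 counts, of which 1578 to 23166 were on Trp53, so that counting error was small beside the differences between libraries. In all 36 libraries 10 of 10 B lineage markers were in the table and their summed level was 1217 to 2187 CPM (counts divided by the TMM-scaled library size, in the usual CPM scale). Summed markers of T cells, myeloid cells, fibroblasts and erythroid cells reached at most 21.8, 54, 2.87 and 4.32 CPM, and Cd4 and Col3a1 were at 0 throughout. In these bulk samples, a change in the share of cells that carry a construct and a change in transcript per cell cannot be told apart.

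Before treatment, Trp53 in control cells was 217 CPM in AH47A, 291 in 287 and 206 in 621. With G280 it was 898, 1973 and 1057 CPM in the same order of lines, and with I192S 1076, 1722 and 693 CPM. With R246Q it was 885, 1345 and 1109 CPM. All mutant libraries lay above all control libraries, with 287 the highest line for each of these 3 constructs. With R270H the levels were 999, 1212 and 784 CPM. V170M gave 946, 2587 and 1381 CPM, the highest mutant level in 287 and 621 but not in AH47A. The lowest of the 15 untreated mutant libraries, at 693 CPM, stood 3.37-fold over the control of its line, and the highest, at 2587 CPM, stood 8.88-fold over it.

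After nutlin-3a, Trp53 in control cells was 261 CPM in AH47A, 446 in 287 and 300 in 621. In the same order of lines, G280 gave 778, 1321 and 799 CPM and I192S gave 872, 1145 and 595 CPM. R246Q gave 728, 973 and 684 CPM, R270H 799, 799 and 446 CPM, and V170M 780, 2024 and 1278 CPM. Within each line every mutant was above the control, by 1.49-fold (R270H in 621) to 4.54-fold (V170M in 287). Across lines the sets just met: R270H in 621 and the control in 287 were both at 446 CPM.

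**Figure D1:**
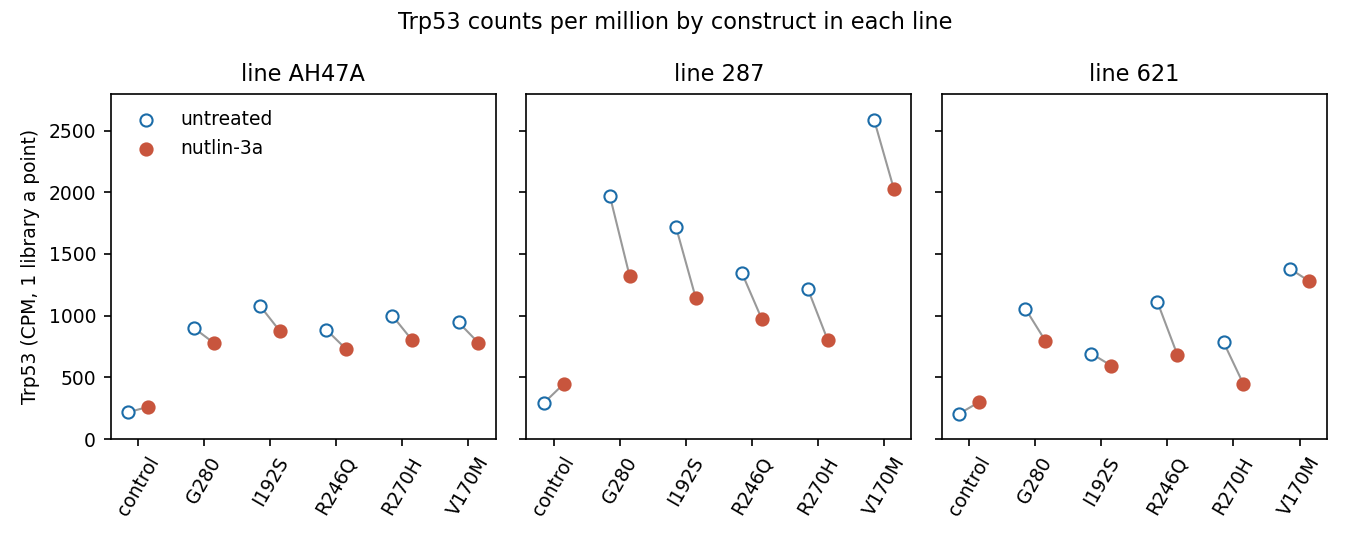
Trp53 in CPM (y axis, from 0) for each construct (x axis) in lines AH47A, 287 and 621 (panels); each point is 1 library, open for untreated and filled for nutlin-3a, and a grey line joins the pair of a line and construct. The control pairs slope up and all 15 mutant pairs slope down, and the mutants lie close together in AH47A and far apart in 287.

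Ordered by their mean, the 12 groups ran from untreated control (238 ± 46.4 CPM, SD, n = 3) and nutlin-treated control (335 ± 97.5) to V170M after nutlin (1361 ± 626) and untreated V170M (1638 ± 850). Between them stood the nutlin groups of R270H (681 ± 204), R246Q (795 ± 156), I192S (871 ± 275) and G280 (966 ± 308). The untreated groups of R270H (998 ± 214), R246Q (1113 ± 230), I192S (1164 ± 520) and G280 (1309 ± 580) followed. Only 1 of the 11 steps between neighbours exceeded the larger SD of its 2 groups, that from the treated control to treated R270H (346 against 204 CPM). The other steps were within the spread over lines, although the 2 steps between the untreated and treated libraries of one construct, control and V170M, had the same sign in 3 of 3 lines.

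Trp53 passed the test before treatment in each of the 5 mutants. Log2 differences from the control were 2.70 ± 0.25 (SE) for V170M (edgeR adjusted p = 6.39e-06), 2.39 ± 0.25 for G280 (adjusted p = 4.45e-05) and 2.23 ± 0.25 for both I192S (adjusted p = 0.000139) and R246Q (adjusted p = 0.000136). For R270H the difference was 2.07 ± 0.25 (adjusted p = 0.000433). These fits held a separate nutlin response for each line over all 36 libraries, and the p-values were adjusted over 12321 genes. In each of these comparisons 0.00812% of the genes tested were called, which is Trp53 alone. For the mean of the 5 mutants the difference was 2.32 ± 0.22 (adjusted p = 7.82e-06), with 0.0162% of genes called. The calls rested on having line 287: without it the differences were 2.05 to 2.46 but adjusted p was 0.127 to 0.758 in the single mutants and 0.247 in their mean. Without 621 the calls of G280 (adjusted p = 0.12), R246Q (0.377) and R270H (0.175) were lost, and leaving out any 1 library ended none of them.

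After nutlin-3a the differences from the control were smaller in every mutant. They were 1.99 ± 0.25 for V170M (adjusted p = 2.06e-05, 17.6% of genes called), 1.52 ± 0.24 for G280 (adjusted p = 0.000814, 10.5% called) and 1.37 ± 0.24 for I192S (adjusted p = 0.00543, 2.66% called). R246Q differed by 1.26 ± 0.24 (adjusted p = 0.00392, 6.06% called) and R270H by 1.04 ± 0.24 (adjusted p = 0.0211, 3.64% called). The mean of the 5 mutants was 1.44 ± 0.21 above the control (adjusted p = 9.01e-05, 16% called), or 2.71-fold, against 5.01-fold before treatment. Among single mutants the call of V170M alone held under every leave-out. That of R270H ended without AH47A (adjusted p = 0.0907), 287 (0.116) or 621 (0.116). It also ended when the R270H library of AH47A was left out (0.129), and without the control library of AH47A (0.079), 287 (0.0532) or 621 (0.0603). The call of I192S ended without 287 (0.12) or its own AH47A library (0.0545), that of R246Q without 287 (0.107) or 621 (0.0636), and that of G280 without 621 (0.0638).

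**Figure D2:**
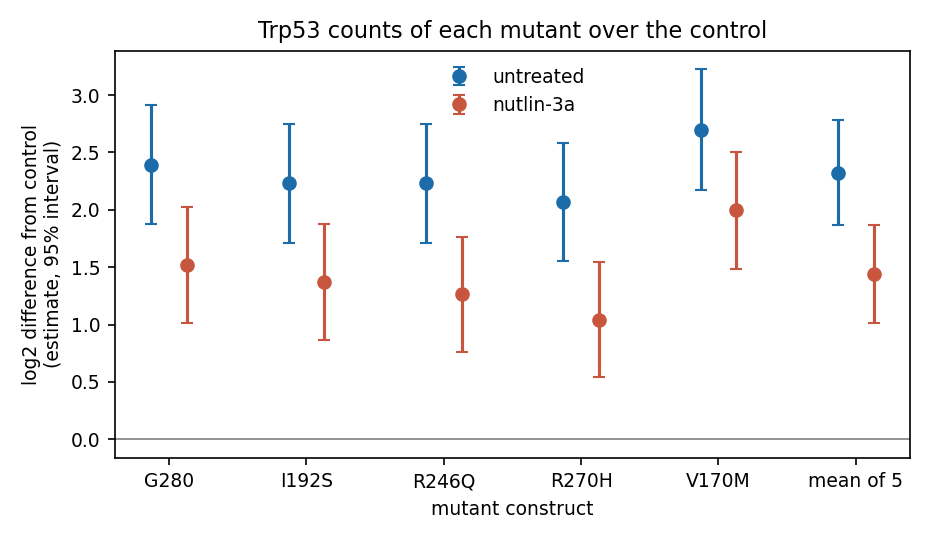
Log2 difference of Trp53 counts from the control (y axis) for each mutant and for the mean of 5 (x axis), untreated in blue and after nutlin-3a in red; points are estimates of the edgeR fit over 36 libraries and bars 95% intervals. All intervals lie above 0, and each red point, from 1.04 to 1.99, lies below the blue point of its construct, from 2.07 to 2.70.

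How far the constructs differed in Trp53 depended on the line. In AH47A the 5 untreated mutants lay within 1.22-fold of each other (885 to 1076 CPM), whereas they spanned 2.13-fold in 287 (1212 to 2587 CPM) and 1.99-fold in 621 (693 to 1381 CPM). After nutlin the spans were 1.20-fold, 2.53-fold and 2.87-fold. A fit with a term for line by construct called Trp53 (F test, adjusted p = 8.16e-06, 12.8% of genes called), and so did the test among the 5 mutants only (adjusted p = 3.52e-06, 13.9% called). Leaving out each line in turn kept both calls, with adjusted p of at most 0.00404 and 0.00487. In that test the untreated and treated library of a line and construct served as replicates, and they may share a culture. The coefficient of variation between libraries that the fit left for Trp53 was 19.9% without this term and 7.87% with it, against 9.68% and 6.64% over all genes.

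Differences in Trp53 among the 5 mutants passed in some fits only. The F test among the 5 mutants did not pass in the untreated libraries (adjusted p = 1, 0.0812% of genes called) or after nutlin (adjusted p = 0.243, 0.0243% called). With the line by construct term it passed in both (adjusted p = 0.000736 with 1.47% of genes called, and 1.92e-06 with 6.6% after nutlin); that fit compares the constructs within these 3 lines. Of the 20 comparisons between pairs of mutants, 10 in each treatment, 1 passed without the line by construct term: after nutlin R270H was lower than V170M by a log2 difference of -0.95 ± 0.24 (adjusted p = 0.0365, 3.02% called). In the other pairs 0% to 0.0568% of genes were called. It was lost without 287 (adjusted p = 0.287) or 621 (0.484), with no filter on low counts (0.0595), an additive line (0.409), no line term (1) or the compared groups alone (0.593), and the gap was absent in AH47A, where R270H had 799 and V170M 780 CPM. Before treatment the same pair differed by -0.63, with a 95% interval from -1.12 to -0.14 that misses 0 but an adjusted p of 1. With the line by construct term, the share of all genes called was not counted for pairs of mutants. The F tests of that fit called 1.47% of genes untreated and 6.6% after nutlin, more than those without the term. In that fit the untreated difference of R270H and V170M passed (-0.61 ± 0.09, adjusted p = 0.000414), as did 7 further pairs (adjusted p from 6.77e-05 to 0.0406). Those were I192S and R246Q below V170M before treatment, and G280, I192S and R246Q below V170M and G280 and I192S above R270H after nutlin. In AH47A some of these orders were reversed. Untreated I192S (1076 CPM) and R270H (999) lay above V170M (946) there. After nutlin, AH47A had I192S (872 CPM) above V170M (780) and G280 (778) below R270H (799). The p-values of that fit do not measure whether the order was shared by the lines.

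Among lines, 287 had the most Trp53. Averaged over the 6 constructs, 287 exceeded AH47A by 0.76 ± 0.17 before treatment (adjusted p = 0.000542, 58.8% of genes called) and by 0.60 ± 0.17 after nutlin (adjusted p = 0.00323, 73.2% called). Line 621 lay below 287 by -0.76 ± 0.17 (adjusted p = 0.000495, 60.4% called) and -0.70 ± 0.17 (adjusted p = 0.000758, 73.1% called). Between 621 and AH47A the difference was 0.00 ± 0.17 before treatment (95% interval -0.35 to 0.35, adjusted p = 0.998, 58.6% called) and -0.11 ± 0.17 after it (adjusted p = 0.601, 60.3% called). As most genes passed such comparisons of lines, a call says little about Trp53 in particular. The constructs stood in for replicates of a line here.

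After nutlin-3a, Trp53 counts were higher in control cells and lower in mutant cells. In the control they were higher in 3 of 3 lines, by a log2 change of 0.26 in AH47A, 0.61 in 287 and 0.54 in 621. With a mutant they were lower in 15 of 15 pairs, by -0.11 (V170M in 621) to -0.82 (R270H in 621). The control changes and the mutant changes did not overlap, and all 3 lines showed the split. In the fit of all libraries the fall in the mean of the 5 mutants passed the test (-0.41 ± 0.11, adjusted p = 0.00145, 67.8% of genes called) but not without line 287 (adjusted p = 0.0869), and the change in the control did not (0.47 ± 0.24, adjusted p = 0.108, 53.7% called). The difference between the 2 responses was -0.89 ± 0.27 (adjusted p = 0.0666, 3.38% called).

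That fit leaves the differences between lines in a construct's level in the spread. With a block for each pair of untreated and treated library, the control rose by 0.47 ± 0.09 (adjusted p = 9.56e-05), the mutants fell by 0.42 ± 0.04 on the log2 scale in their mean (adjusted p = 6.88e-10), and the 2 responses differed by -0.89 ± 0.10 (adjusted p = 1.21e-05). In the blocked fit 58.5%, 70.8% and 9.24% of all genes were called in these comparisons. Each mutant fell in the blocked fit: R270H by 0.58 (adjusted p = 6.39e-06, 51% of genes called), R246Q by 0.48 (adjusted p = 8.46e-05, 45.3%) and G280 by 0.40 (adjusted p = 0.000717, 43.5%). I192S fell by 0.37 (adjusted p = 0.00117, 47.8%) and V170M by 0.25 (adjusted p = 0.0305, 35.7%), each with an SE of 0.09. The blocked difference passed for each mutant: it was -1.05 ± 0.13 for R270H (adjusted p = 9.63e-05, 2.07% of genes called) and -0.96 ± 0.13 for R246Q (adjusted p = 0.000528, 2.45% called). G280 differed by -0.87 ± 0.13 (adjusted p = 0.000982, 4.06% called), I192S by -0.85 ± 0.13 (adjusted p = 0.00201, 0.552% called) and V170M by -0.72 ± 0.13 (adjusted p = 0.00106, 9.76% called). An exact permutation test that exchanged the control with the 5 mutants within each line gave a two-sided p of 0.00463, the smallest that its 216 arrangements can give. It was chosen after the split in all 3 lines was seen, so it could give no other p and is no separate support. The response of Trp53 did not pass a test of difference among the 5 mutants (F test, adjusted p = 1, 0% of genes called, and adjusted p = 0.936 with the block) or among the 3 lines (adjusted p = 0.821, 60.3% called).

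**Figure D3:**
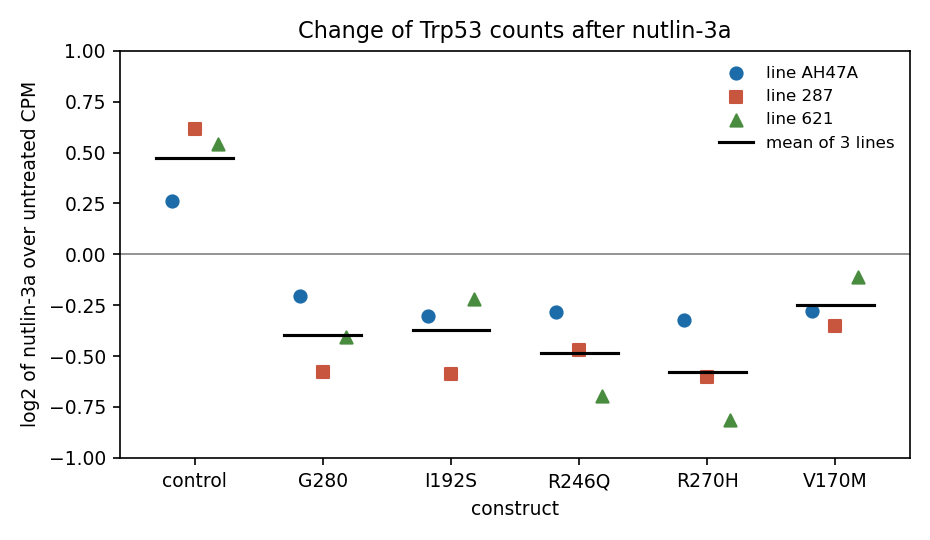
Log2 ratio of Trp53 CPM after nutlin-3a over untreated (y axis) for each construct (x axis); symbols are lines AH47A, 287 and 621 (1 pair of libraries each) and the bar is their mean. The 3 control pairs lie above 0, from 0.26 to 0.61, and all 15 mutant pairs below it, from -0.82 to -0.11.

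The Trp53 counts of a mutant in excess of the control of the same line and treatment were lower after nutlin in 15 of 15 pairs. This count was fixed by the rise of the control and the fall of every mutant in each line. It is therefore no separate result. The excess after nutlin was 0.253 (R270H in 621) to 0.832 (V170M in 621) of the untreated excess, with a median of 0.606. For V170M the excess went from 1400 ± 807 to 1025 ± 531 CPM (SD, n = 3), and for R270H from 760 ± 172 to 346 ± 196 CPM. The retained part was largest for V170M in 287 and 621 and for G280 in AH47A. It was 0.688 to 0.832 over the lines for V170M, 0.52 to 0.759 for G280, 0.489 to 0.711 for I192S, 0.425 to 0.699 for R246Q and 0.253 to 0.689 for R270H, and these ranges touch or overlap. This subtraction takes the endogenous level of a mutant culture to be that of the control, which the counts cannot show.

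Before treatment no gene beside Trp53 passed in a single mutant, and 1 other, Fgf13, a fibroblast growth factor family gene, passed in the mean of 5 mutants (adjusted p = 0.0398). Fgf13, named after its values were seen, had untreated counts in AH47A alone, with 8.16 CPM in the control and 0 to 12.5 CPM in the mutants, so the call came from 1 line and the ranges overlapped. Of the 10 genes within 50 kb, 8 were in the table and 3 had enough counts to be tested. Wrap53, whose product carries telomerase RNA to Cajal bodies and whose antisense transcript stabilises p53 RNA in human cells, differed by 0.04 ± 0.09 in the untreated mean of 5 mutants (22.9 CPM in the control, 23.7 in the mutants). Fxr2, an RNA-binding protein gene of the fragile X family, differed by 0.02 ± 0.07, and Efnb3, an ephrin gene, by 0.34 ± 0.25 at 2.34 to 2.78 CPM, each with an adjusted p of 1. Wrap53 did not overlap Trp53 in RefSeq. The p53 family members Trp63 and Trp73 had too few counts to be tested, and the pseudogene Trp53-ps on chromosome 17 was not analysed here.

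Some regulators of p53 were called after nutlin and none before it, and calls over all genes were also far more frequent after nutlin. Of 15 measured genes for feedback and stability of p53, 0 were called in the untreated mean of 5 mutants, where 0.0162% of all genes were, and 6 after nutlin (2 higher and 4 lower, against 7.22% of all genes higher and 8.76% lower, or 16%). Mdm4 was lower by -0.89 ± 0.10 (adjusted p = 3.61e-06) and Mdm2 by -0.74 ± 0.09 (adjusted p = 1.29e-05). Rchy1, which encodes the p53 ubiquitin ligase PIRH2, was lower by -0.63 ± 0.10 (adjusted p = 0.000114) and Ppm1d, the gene of the p53 phosphatase WIP1, by -0.41 ± 0.08 (adjusted p = 0.000445). With an additive term for line the calls of Mdm2 (adjusted p = 0.065), Rchy1 (0.175) and Ppm1d (0.252) were lost. Relative to the control, the mean of 5 mutants had a smaller rise with nutlin, by -0.89 ± 0.15 for Mdm4 (adjusted p = 0.00371), -0.71 ± 0.14 for Mdm2 (adjusted p = 0.00922) and -0.63 ± 0.16 for Rchy1 (adjusted p = 0.0277), against 3.38% of genes called. Leaving out a line ended the calls of Mdm4 (AH47A or 287), Mdm2 (287 or 621) and Rchy1 (any), with adjusted p from 0.0533 to 0.196. Leaving out the control library of AH47A after nutlin or any of the 3 untreated control libraries also ended that of Rchy1 (adjusted p from 0.0688 to 0.14), and with an additive term for line all 3 calls were lost (adjusted p = 0.853). Of 11 measured genes whose products act on Trp53 RNA or its transcription, 0 were called before treatment and 1 after it, against 16% of all genes. The 1 called was Wrap53 (-0.25 ± 0.08, adjusted p = 0.042). The call of Wrap53 was lost in 13 of 21 leave-outs. Among these were any 1 line (adjusted p from 0.0932 to 0.306), any 1 of the 3 control libraries after nutlin (0.0603 to 0.355) and several single mutant libraries. It was also lost with no filter on low counts (0.0701), an additive line (0.509), no line term (0.9998) or the compared groups alone (0.112). Wrap53 itself rose with nutlin in the control (0.71 ± 0.11, adjusted p = 5.73e-06) and in the mean of 5 mutants (0.42 ± 0.05, adjusted p = 1.98e-08, but 0.15 and 0.0807 without 287), whereas Trp53 counts fell in the latter. Of 12 p53 cofactor genes, 0 were called before treatment, where 0.0162% of all genes were. After it 4 were called (1 higher, 3 lower), against 7.22% of all genes higher and 8.76% lower.

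Over the 36 libraries, centred on the mean of their line and treatment, genes among the most like Trp53 were Akr7a5 (Pearson r = 0.70), an aldo-keto reductase gene, Zfp395 (0.68), Mgat2 (0.63), an N-glycan branching enzyme, and Slc35a4 (0.62), a solute carrier. The most opposed were Ccng1 (-0.78), the gene of cyclin G1, Zmat3 (-0.74), an RNA-binding p53 target, Dglucy (-0.72), the D-glutamate cyclase gene, Cdkn1a (-0.71), which encodes the cell cycle inhibitor p21, and Bax (-0.70), the apoptosis effector. For comparison, the percentiles 1 and 99 of the 12320 genes compared were -0.53 and 0.51. These values describe libraries that share the contrast of mutants and control. Over the 30 mutant libraries alone they were lower for Akr7a5 (0.41), Zfp395 (0.27) and Bax (-0.33) and nearer for Slc35a4 (0.69), Ccng1 (-0.68) and Zmat3 (-0.62).

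The median nutlin response of p53 targets was lower in every mutant than in the control of its line. The median log2 response of 43 measured p53 targets was 2.51 in AH47A, 3.07 in 287 and 2.09 in 621 in control cells. In the mutants it was 1.29 to 1.59 in AH47A, 2.24 to 2.87 in 287 and 1.40 to 1.84 in 621. In 287 the mutant with the most Trp53, V170M, had the lowest median response (2.24) and that with the least, R270H, the highest (2.87). In 621 the mutant with the least, I192S, had the highest (1.84), but V170M with the most stood in the middle (1.61). In AH47A, where Trp53 of the mutants lay within 1.22-fold, the mutant with the most, I192S, had the second lowest median (1.34). The mutant with the least there, R246Q, did not have the highest (1.54), and V170M, in the middle of the Trp53 order, had the lowest (1.29).

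**Figure D4:**
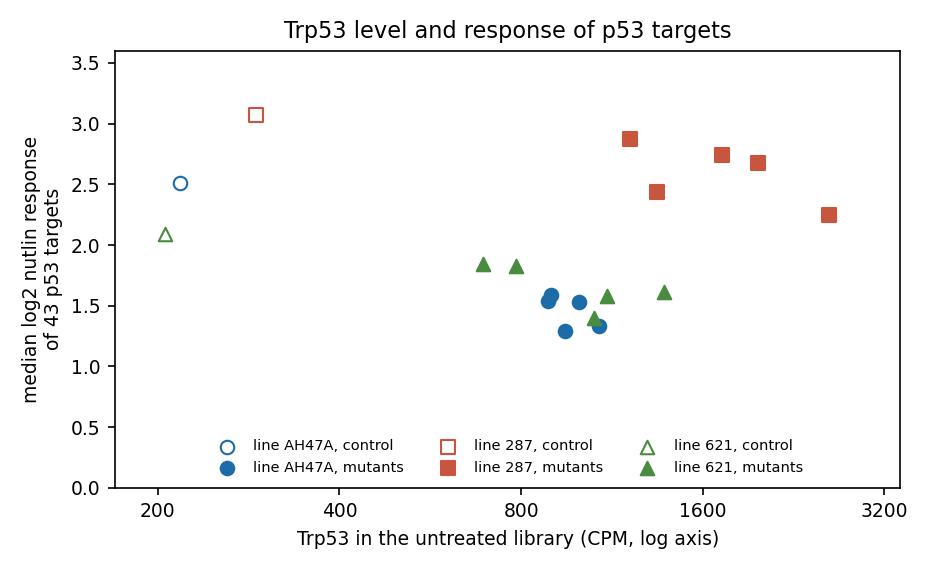
Median log2 nutlin response of 43 p53 target genes (y axis, from 0) against Trp53 CPM in the untreated library (x axis, log scale); each point is 1 line and construct, open for the control and filled for the mutants, with a symbol and colour per line. Within each line the control is at the left and above all mutants, and line 287 has both the highest Trp53 and the highest responses.

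Whether the response of any gene varied with the Trp53 level was tested across all genes as a slope, the change in log2 nutlin response per log2 unit of untreated Trp53, within lines and with a block for each pair. Over the 15 mutant pairs 14 of 12320 genes passed (0.114%), 4 with positive (0.0325%) and 10 with negative slopes (0.0812%). Among them was Mdm4, whose slope was -0.62 ± 0.12 (adjusted p = 0.0362). In 287 its log2 response was 2.24 with R270H, 2.09 with R246Q, 1.74 with I192S, 1.98 with G280 and 1.32 with V170M, listed in rising order of Trp53, so that only G280 broke a falling order. In 621, listed the same way, it was 0.74 with I192S, 0.72 with R270H, 0.42 with G280, 0.75 with R246Q and 0.23 with V170M. In AH47A it was 0.82 with R246Q, 1.22 with G280, 0.69 with V170M, 0.66 with R270H and 0.80 with I192S. That list, also in rising order of Trp53, did not fall steadily. In the control it was 2.14 in AH47A, 2.59 in 287 and 1.24 in 621, above all mutants of each line.

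Positive slopes were called for Ccne1 (0.68 ± 0.14, adjusted p = 0.0362), the gene of cyclin E1, Elovl6 (0.50 ± 0.10, adjusted p = 0.0396), a fatty acid elongase, Angptl4 (1.04 ± 0.22, adjusted p = 0.0418), a lipase inhibitor, and Ppil1 (0.47 ± 0.10, adjusted p = 0.0454), a splicing-associated isomerase. The negative slopes of smallest p were those of Tmem43 (-0.77 ± 0.15), Bbs7 (-1.79 ± 0.34), Bmt2 (-0.99 ± 0.19), Ppfibp1 (-0.65 ± 0.13) and Zfp809 (-0.65 ± 0.13), each with an adjusted p of 0.0362. Leaving out the V170M libraries, or any 1 of the 3 lines, left 0 genes called, and without V170M the slope of Mdm4 was -0.39. The count was 0 without the pair block, 4 with the level taken as linear CPM, 23 with DESeq2 and 260 with the level averaged over the untreated and treated library.

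None of the 43 p53 targets passed over the mutants alone, where 0.114% of all genes did. Of the 43 target slopes 37 were negative, against 49.2% of all genes. Their median slope was -0.25, against 0.00 over all genes, and remained at -0.25 without V170M. The targets of smallest p were Bcl2l11 (-0.53 ± 0.12, adjusted p = 0.0579), the gene of the death protein BIM, Rchy1 (-0.54 ± 0.16, adjusted p = 0.157), Ercc5 (-0.54 ± 0.17, adjusted p = 0.168), a DNA repair nuclease, and Exoc4 (-0.39 ± 0.13, adjusted p = 0.183), an exocyst subunit. Bcl2l11 passed with no filter on low counts (adjusted p = 0.0226), with DESeq2 (0.0453) and with the mean level (0.0281), and Rchy1 with the mean level (0.0328). Mdm2 had a slope of -0.44 ± 0.16 (adjusted p = 0.238). Cdkn1a (-0.13 ± 0.31) and Bbc3 (0.08 ± 0.29), the gene of the death protein PUMA, had slopes within their error, and those of Ccng1 (-0.20 ± 0.11), Bax (-0.17 ± 0.11) and Pmaip1 (-0.38 ± 0.32), the gene of NOXA, did not pass either. Untreated Cdkn1a had only 2 to 6 counts in the AH47A mutants, so its responses there rest on few counts. The slope of its untreated level over the mutants was -0.47 ± 0.28 (edgeR adjusted p = 0.701).

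With the control added, which stands far below the mutants in Trp53, 1669 of 12320 genes passed (13.5%, namely 880 with positive slopes, 7.14%, and 789 with negative slopes, 6.4%), and the slope was then mostly control against mutant. It was 932 to 1057 genes when 1 line was left out. Of the 43 p53 targets 22 passed, all with negative slopes, and of the 21 mevalonate pathway genes, reported to be raised by mutant p53, 12 passed, all with positive slopes. These mevalonate genes fell with nutlin in the control (19 of 21 called, median log2 response -1.12), where 53.7% of all genes were called. They also fell in the mean of 5 mutants (20 of 21, median -0.58), where 67.8% were called. None of the 21 was called before treatment in the mean of 5 mutants, where 0.0162% of all genes were. All 21 were slightly higher there than in the control (median log2 difference 0.07), against 48.6% of all genes lower. After nutlin 16 were called higher in that mean than in the control, against 7.22% of all genes. None had a slope that passed over the mutants alone, where 0.114% of all genes did. Of these slopes 18 were positive and 3 negative (median 0.19), against 49.2% negative over all genes. Mdm4 (-0.40 ± 0.05, adjusted p = 5.53e-05), Mdm2 (-0.31 ± 0.06, adjusted p = 0.00116), Exoc4 (-0.33 ± 0.04, adjusted p = 3.4e-06) and Ephx1 (-1.01 ± 0.13, adjusted p = 7.53e-06), an epoxide hydrolase gene, had negative slopes. Mdm4 was counted with the regulators only and Exoc4 and Ephx1 with the targets. Mdm2, like Rchy1, was in both lists, so the counts of regulators and targets share genes. Elovl6 (0.42 ± 0.03, adjusted p = 1.27e-10) and Pcna (0.24 ± 0.03, adjusted p = 1.36e-06), the replication clamp, were among the positive slopes of smallest p.

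**Figure D5:**
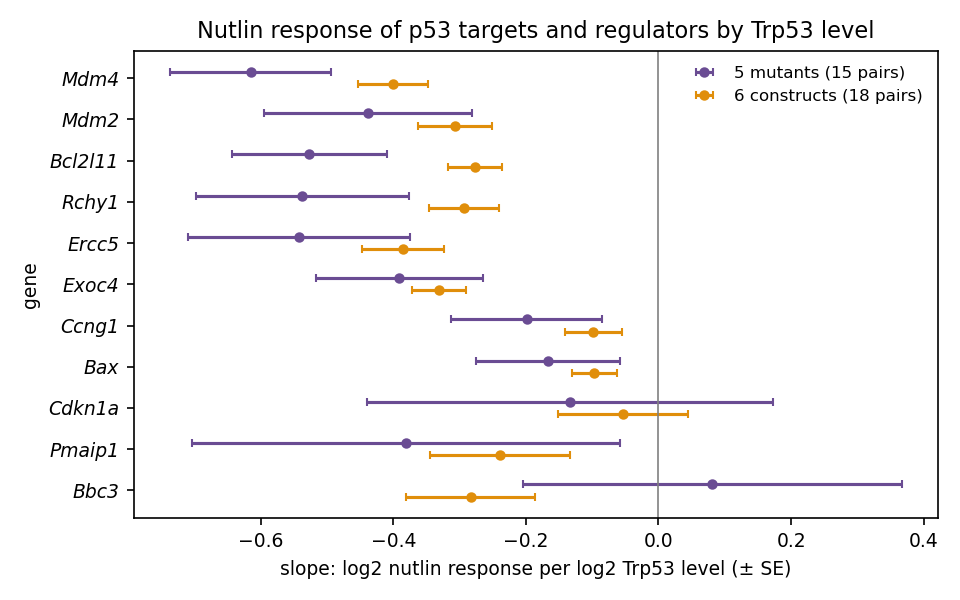
Slope of the log2 nutlin response per log2 unit of untreated Trp53 (x axis, point ± SE) for Mdm4, Mdm2 and 9 p53 targets (y axis), over the 15 mutant pairs (purple) and over all 18 pairs (orange). Slopes over the mutants have the wider errors; Mdm4 passed in both, and Cdkn1a lies near 0 in both.

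Before treatment few genes had a level whose slope on Trp53 passed. Over the 15 untreated mutant libraries 0 genes passed with edgeR (0%), 949 of 12320 had an unadjusted p under 0.05, and DESeq2 called 1. Of the 43 p53 targets 35 had negative slopes in these libraries, against 53.6% of all genes. Over the 18 untreated libraries with the control 2 passed (0.0162%), Ccng1 (-0.14 ± 0.02, adjusted p = 0.00938) and Map3k8 (-1.55 ± 0.25, adjusted p = 0.0145), a kinase gene. Untreated Ccng1 was 75.5 CPM in AH47A, 73.4 in 287 and 116 in 621 in the control, and 59.8 to 67.3, 55.8 to 66.9 and 81.6 to 91.3 CPM in the mutants of these lines, without overlap within a line. Both calls were lost without line 621, where the slopes were -0.11 and -0.33 (adjusted p = 0.998 each), and that of Ccng1 also without AH47A (adjusted p = 0.0756).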

How the data were processed

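RNA-seq libraries of 3 cell lines, 6 constructs and 2 treatments were deposited as raw counts per gene, which the authors made with bcl2fastq 1.8.4 and featureCounts on mm10 (GRCm38), per the submitters' processing notes; the sources used here name no aligner, annotation or strandedness of counting. All 36 columns of the joint table equalled the samples' own files. Identifiers without a symbol (859) held 0.303% of counts. Library totals were 5404113 to 10718302 counts, and counting error is only part of the spread between libraries.

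Genes with enough counts by filterByExpr (minimum count 10 over 12 groups) were tested, 12321 of 27179 with 99.9% of counts, using edgeR 4.0.16 quasi-likelihood tests in R 4.3.3 (TMM scaling, robust fit, limma 3.58.1). The fit held the 12 groups of construct and treatment, line, and line by treatment. P-values were adjusted over all genes tested by the Benjamini-Hochberg method, with a threshold of 0.05; values after ± are standard errors unless named SD. Levels of single genes are CPM, and log2 CPM used a pseudocount of 2 counts. The slope fits related the log2 nutlin response, or the untreated level, to log2 untreated Trp53 within lines. A comparison of groups and the slope test over the mutants were tested on simulated data; the other fits were not.

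A replicate number marks the line in every group, so same-numbered libraries come from the same cell line; deviations from group means correlated over 0.1 in 198 of 198 same-line pairs (0.631 to 0.927). Line was therefore in the fit, and a further block paired the untreated and treated library of a line and construct.

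Alternatives were RLE scaling, no filter, DESeq2 1.42.0, an additive line or no line term, the compared groups only, the pair block, leave-outs and other measures of the Trp53 level. Trp53, the gene lists and the tests were chosen with earlier results of these data known. Named genes were Trp53, its neighbours within 50 kb, and members of the lists of the p53 family, regulators, cofactors, targets and mevalonate enzymes. The 5 most and 5 least correlated genes and up to 10 genes of smallest p per slope test were also named, and Fgf13 was added later, apart from items not reported here. Codons came from GENCODE transcripts and annotation on GRCm38, and gene coordinates from RefSeq.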

Additional observations from a re-analysis of the deposited data

Results flagged for a closer look

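The nutlin response of Trp53 counts differed from that of the control in every mutant when each untreated library was paired with its treated library in the fit. The log2 difference was -0.87 for G280, -0.85 for I192S, -0.96 for R246Q, -1.05 for R270H and -0.72 for V170M, and -0.89 for their mean. Without the pairing the difference of the mean did not pass (edgeR adjusted p = 0.0666).

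Among genes whose products act on p53, the response in the mean of 5 mutants differed from that of the control by -0.89 for Mdm4, -0.71 for Mdm2 and -0.63 for Rchy1. These calls did not hold with an additive term for line.

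The difference in Trp53 between constructs also differed between lines, over all 6 constructs (edgeR F test, adjusted p = 8.16e-06) and over the 5 mutants (adjusted p = 3.52e-06). Groups of 3 libraries are too small for a check of single libraries that stand apart.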

How the results depend on the processing

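For 41 results that answer a comparison, 204 of 266 alternative values and 387 of 429 leave-out values kept direction and call. Of 1377 alternative values of other results 1225 did so, 116 lost the call, 15 gained it, 6 moved and 15 changed sign. The replicate block for each pair, which is the same model as a line by construct term (a term chosen after seeing the data), brought calls for the Trp53 response in the control (0.47), G280 (-0.40), I192S (-0.37), R246Q (-0.48), R270H (-0.58) and V170M (-0.25). It did so for the differences from the control too (-0.87, -0.85, -0.96, -1.05, -0.72 and -0.89 for the mean), and the term did so among mutants (adjusted p = 0.000736 untreated, 1.92e-06 after nutlin). The block changed no other Trp53 response call. The exact permutation test, also chosen after seeing the data, gave -0.89 (p = 0.00463). Without any term for line (no replicate block), calls were lost untreated for I192S (2.29), R246Q (2.23) and R270H (2.07), and after nutlin for G280 (1.53), I192S (1.38), R246Q (1.24), R270H (1.02), V170M (2.02) and the mean (1.44), and for the mean response (-0.43). With the compared groups alone they were lost untreated for G280 (2.39), I192S (2.21) and V170M (2.68) and after nutlin for I192S (1.37), and gained for the control response (0.48) and the R246Q response difference (-0.96). An additive line ended that of R270H after nutlin (1.05). DESeq2 called the mean response difference (-0.89) and the difference among mutants after nutlin (adjusted p = 0.0468). The untreated difference of 621 from AH47A, near 0, turned negative with RLE scaling (-0.0157), additive line (-0.0534) and DESeq2 (-0.0168), as I192S minus R246Q turned positive without a line term (0.0639) and the Bbc3 slope negative without V170M (-0.23). Slope calls over the mutants (14) became 31 without the filter, 23 with DESeq2, 4 with linear CPM, 260 with the mean level, and 0 without the pair block, V170M or any line. Over 6 constructs (1669) they became 859 without the block and 932 to 1057 without a line. Untreated slope calls over the mutants (0) became 1 without the filter, with DESeq2 or with linear CPM; over 6 constructs (2) they became 4, 1 and 0, and 0 to 3 without a line. The causes of these changes were not tested.

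Leave-outs gave untreated differences of 2.21 to 2.56 for G280, 2.05 to 2.43 for I192S, 2.06 to 2.35 for R246Q, 1.88 to 2.19 for R270H, 2.46 to 2.95 for V170M and 2.20 to 2.41 for the mean. After nutlin they gave 1.43 to 1.61 for G280, 1.18 to 1.57 for I192S, 1.16 to 1.35 for R246Q and 0.71 to 1.26 for R270H. Responses were 0.36 to 0.57 for the control, -0.52 to -0.29 for G280, -0.62 to -0.33 for R246Q, -0.86 to -0.38 for R270H, -0.44 to 0.0412 for V170M (positive without its treated AH47A library) and -0.49 to -0.34 for the mean. The mean response difference was -1.07 to -0.77, and passed without AH47A (adjusted p = 0.0474) and in 4 other leave-outs. The test among mutants after nutlin gave adjusted p from 0.0176 to 0.951. Pairs of mutants untreated gave -0.0125 to 0.38 (G280, I192S), -0.0249 to 0.30 (G280, R246Q), -0.18 to 0.31 (I192S, R246Q), -0.0142 to 0.29 (I192S, R270H) and -0.0230 to 0.34 (R246Q, R270H), and after nutlin -0.00994 to 0.31 (G280, I192S) and -1.43 to -0.69 (R270H, V170M). Untreated Wrap53 gave -0.0447 to 0.12 and Fxr2 -0.0168 to 0.0442. Slopes were -0.54 to 0.14 for Cdkn1a and -0.47 to 0.64 for Bbc3 over the mutants, and -0.11 to 0.00942 and -0.34 to -0.21 over 6 constructs. With 1 library per line, construct and treatment, no spread between cultures of a line was measured.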
